A study of Saccharomyces cerevisiae with 54 samples.

Results

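Meiotic recombination in budding yeast begins with programmed DNA breaks, and 7 genes that make or license these breaks were followed through early sporulation in 2 isogenic strains. The genes were chosen by name and by no threshold on their values, but with earlier results of these data known. The genes were SPO11 (YHL022C), REC102 (YLR329W), REC104 (YHR157W), REC114 (YMR133W), REC107 (YJR021C, also called MER2), MEI4 (YER044C-A) and MER1 (YNL210W). They are 7 of the 6571 genes counted. The MMTT strain was an S288c diploid homozygous for the MKT1(89G) and TAO3(4477C) alleles, made by crossing MT haploids of opposite mating type that came from a sporulated heterozygous diploid. The SS strain was the wildtype S288c diploid with MKT1(89A) and TAO3(4477G). Both strains grew in rich dextrose medium, then in rich acetate medium, and were moved to potassium acetate sporulation medium with amino acid supplements. RNA was sequenced on the move to that medium (0 h) and at 8 later times, the early ones being 30 min, 45 min, 1h10min (1 hour and 10 minutes, and so on) and 1h40min and the late ones 2h30min, 3h50min, 5h40min and 8h30min, with 3 libraries for each strain and time. S288c sporulates poorly, the 2 alleles were studied for their part in sporulation efficiency, and each strain is a single genotype, so MMTT differs from SS by the pair of alleles together. Gene counts cannot show the alleles themselves.

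Spo11 is a topoisomerase-like protein that cuts both DNA strands in meiotic prophase and stays bound to the cut ends. It works in a core complex with Rec102, Rec104 and Ski8, and the core complex is brought to chromosomes by Rec114, Mei4 and Mer2, the product of REC107, which gather on the chromosome axis. Mer1 is not part of this machinery. It is an RNA-binding protein that, with the U1 snRNP protein Nam8, promotes splicing of a few meiotic transcripts including that of REC107, which is known to be transcribed in mitotic cells but spliced efficiently only in meiosis. Early meiotic genes of this kind are repressed in growing cells through Ume6 and become active when Ime1 joins it. Middle genes are activated later by Ndt80.

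The gene positions below are from the RefSeq annotation of S. cerevisiae build R64, matched by systematic name, because the count table carries no coordinates. SPO11 lies at chrVIII:62961-64157 on the minus strand and has 1 coding exon. REC104 is on the same chromosome at chrVIII:412907-413455, on the plus strand, and MER1 lies at chrXIV:250931-251743, also on the plus strand, each with 1 coding exon. REC102 (chrXII:786442-787333, plus), REC114 (chrXIII:536207-537609, plus), REC107 (chrX:468555-469579, minus) and MEI4 (chrV:238460-239774, minus) each have 2 coding exons with 1 intron. No other annotated gene overlaps any of the 7, and none has a near copy elsewhere in the genome (at least 90% identity over 100 bases). Next to REC107 the count table lists YJR020W, which has no R64 entry, so an overlap with it was not looked at.

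The introns are shown because REC107 is the member whose splicing needs Mer1. The first 40 bases of each intron are given 5′ to 3′ on the gene's strand, with the first 6 bases, the 5′ splice site, in capitals, and with any of the Mer1-responsive words ATACCCTC, ATACCCTT, ACACCCTC and ACACCCTT, searched on the gene's strand, also in capitals. The 4 members come first, followed by 3 known Mer1 targets outside the set.
REC102 (chrXII:786616-786655, plus): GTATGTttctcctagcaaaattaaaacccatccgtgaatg
REC114 (chrXIII:537449-537488, plus): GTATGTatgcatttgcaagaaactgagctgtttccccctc
MEI4 (chrV:239672-239711, minus): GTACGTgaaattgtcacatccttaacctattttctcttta
REC107 (chrX:469224-469263, minus): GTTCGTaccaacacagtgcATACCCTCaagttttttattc
HFM1 (chrVII:31539-31578, minus): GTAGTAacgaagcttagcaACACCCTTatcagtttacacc
SPO22 (chrIX:225860-225899, minus): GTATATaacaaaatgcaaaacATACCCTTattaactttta
AMA1 (chrVII:946328-946367, plus): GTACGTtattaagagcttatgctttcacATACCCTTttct
Among the members only the REC107 intron, 80 bases long, carried such a word, and its 5′ splice site reads GTTCGT, against GTATGT in REC102 and REC114. Of 281 annotated introns, 4 (1.42%) had one of the 4 words in their first 40 bases, and these were the introns of REC107, HFM1, SPO22 and AMA1. The words were picked as Mer1-responsive and these genes are known Mer1 targets, so the share is no independent finding. The MEI4 intron is 88 bases long, the REC102 intron 97 and the REC114 intron 116. A match is a description of the letters and not of binding, and the gene counts do not separate spliced from unspliced RNA.

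The 300 bases before each start codon were searched on both strands for the core of the Ume6 site, GGCGGC (on the other strand GCCGCC), through which early meiotic genes are repressed and then induced. REC104, REC114, MEI4 and MER1 held 1 match each, so 4 of 7 members had one, and 5.29% of 5875 such windows in the genome did. The matches began 91, 92, 96 and 110 bases before the start codon in that order of genes. They are printed with 12 bases on each side, 5′ to 3′ on the gene's strand, with the match in capitals.
REC104 (chrVIII:412804-412833, plus): cgcacaatatttGGCGGCtattttccgcta
REC114 (chrXIII:536103-536132, plus): cgttacaaggtgGGCGGCtaacttataaaa
MEI4 (chrV:239853-239882, minus): tatatattgctgGGCGGCtaaatgtttccg
MER1 (chrXIV:250809-250838, plus): gatcgcattttaGCCGCCgacagtgttaat
In REC104, REC114 and MEI4 GGCGGC is followed by ta, and in MER1 the match is on the other strand. SPO11, REC102 and REC107 had no match to these letters in this window. The core of the middle sporulation element, CACAAA (on the other strand TTTGTG), at which Ndt80 and Sum1 bind, was found in 1 member, REC104, 281 bases before the start codon, and in 19.4% of all windows.
REC104 (chrVIII:412614-412643, plus): gggaccctcattCACAAAcaaggcagggac
The 4 members with the Ume6 core included the member with the highest level per kilobase at the last time point in MMTT, REC104, and the member with the lowest, MER1, as described further on.

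**Figure D1:**
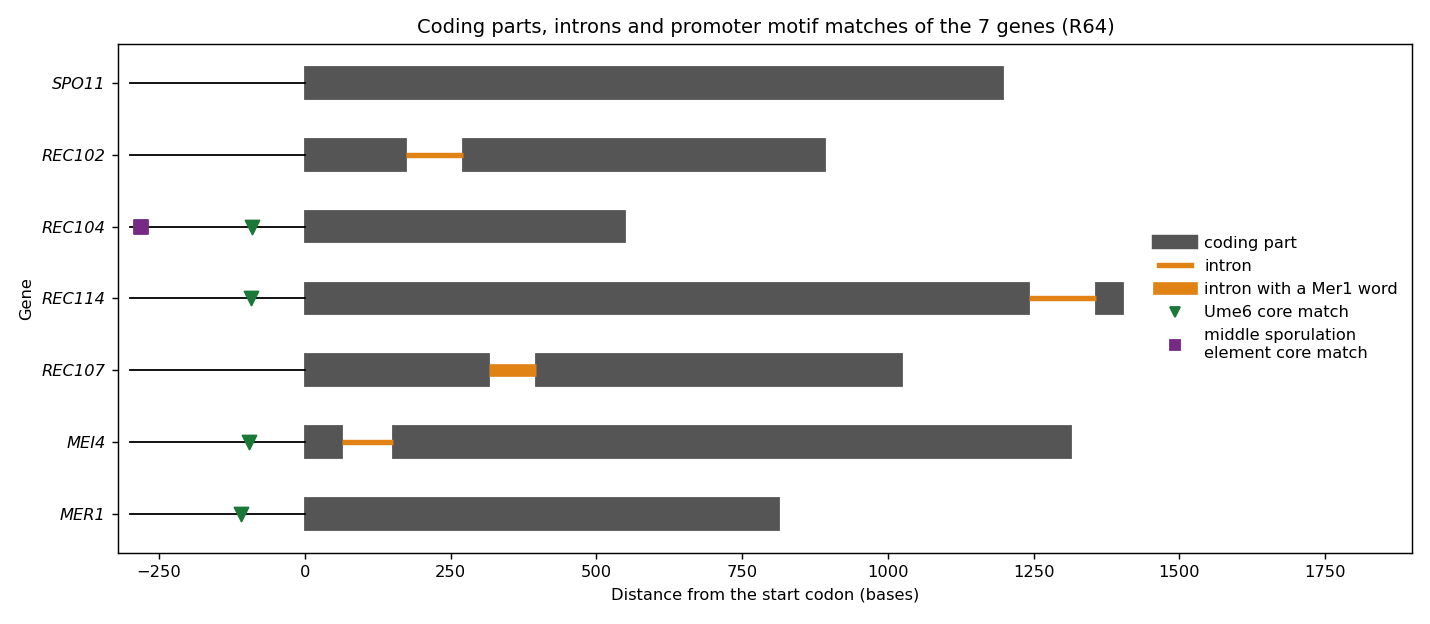
Coding parts, introns and promoter matches of the 7 genes, drawn to scale by distance from the start codon in bases (R64). Grey bars are coding parts, orange bars are introns (the thick one, in REC107, holds a Mer1 word), green triangles are Ume6 core matches and the purple square is the middle sporulation element core of REC104. The 4 Ume6 matches all begin between 91 and 110 bases before the start codon.

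The study left out 5 of the 54 libraries as potential outliers, and the groups below rest on the other 49, so that 5 of the 18 groups hold 2 libraries and the rest 3. These 49 libraries held between 1455002 and 5793502 counted reads (median 3641591). Left out in MMTT were replicate 2 of 45 min and replicate 3 of both 2h30min and 5h40min, and in SS replicate 1 of both 0 h and 30 min. Levels are in CPM, the reads of a gene scaled to a common library size, here with TMM factors. Haploid-specific transcripts, which a/alpha diploids repress, were present in both strains: the sum over 10 such genes ranged from 143 to 295 CPM in MMTT libraries and from 102 to 181 CPM in SS libraries, and the gene medians in MMTT ran from 0.231 CPM for MF(ALPHA)2 to 52.9 CPM for RME1, a repressor of meiosis. Of the 9 that could be tested, 5 were higher in MMTT by the adjusted p at 30 min and 2 at 8h30min. The shares of all genes were 18.1% and 20.3%. At 0 h 1 was higher (7.16% of all genes), and from 45 min to 5h40min 2 to 4 were (9.27% to 18.4%). At 1h40min and at 3h50min 1 was lower in MMTT, where 9.85% and 10.7% of all genes were. At 30 min and at 8h30min 1 was called higher by the thresholds given below, where 1.71% and 4% of all genes were. The strain by time interaction was called for 3 (STE4, NEJ1 and RME1), against 14.8% of all genes. The part of the haploid-specific genes in the results was not tested.

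At 8h30min, the last time point, all 7 break genes had more RNA in every MMTT library than in any SS library, as did 27.7% of all genes tested. MER1 was among the genes tested only through its MMTT levels, so its place in this count is a description. Summed over the 7 genes, the level at 8h30min was 593 ± 87.0 CPM in MMTT and 151 ± 10.2 CPM in SS (SD, n = 3 each), while at 0 h it was 89.5 ± 4.44 CPM in MMTT (n = 3) and 129 ± 0.855 CPM in SS (n = 2). In SS the summed group means stayed between 129 and 153 CPM at all 9 times. REC107 made up 55.7% of the MMTT sum at 0 h and 18.3% at 8h30min, against 79.3% of the SS sum at 0 h and 44.2% at 8h30min. These are bulk cultures, in which fewer cells expressing a gene and less RNA per cell cannot be told apart.

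**Figure D2:**
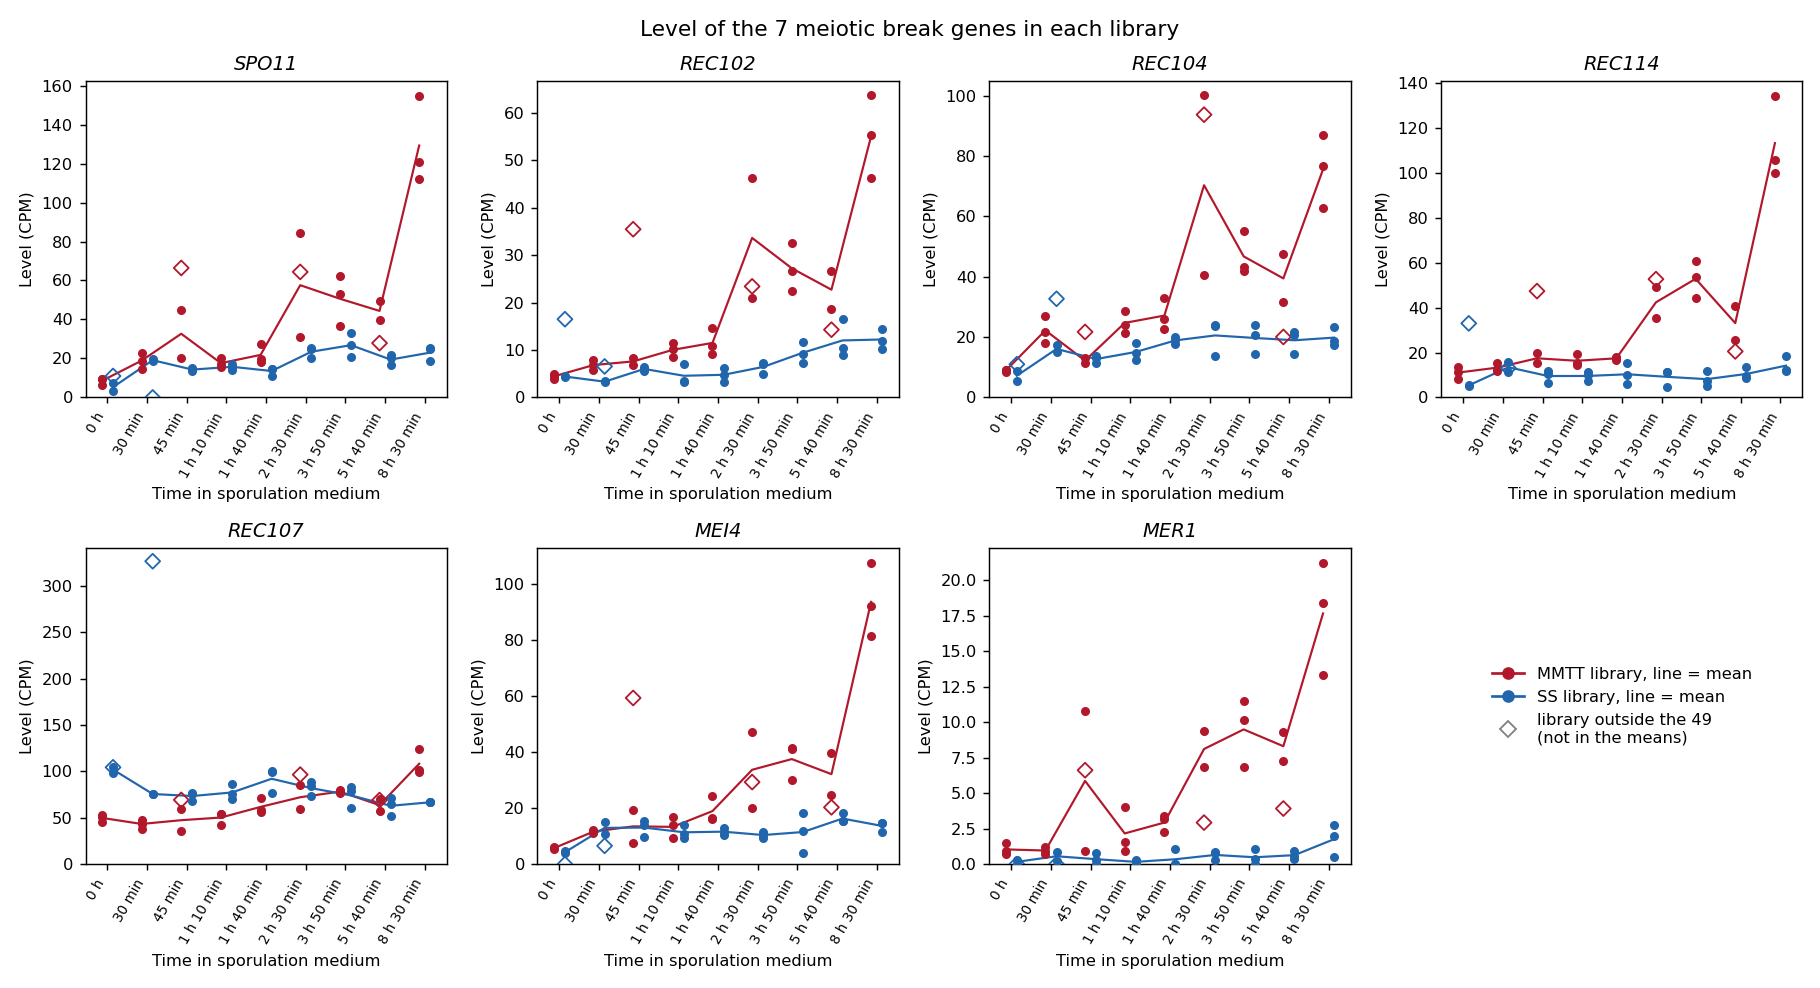
Level of each break gene (CPM after TMM scaling) against time in sporulation medium, 1 panel per gene. Points are single libraries, lines join the group means over the 49 libraries, and open diamonds are the 5 libraries left out. In MMTT every gene has its highest mean at 8h30min, and in SS the REC107 mean is highest at 0 h, at 102 CPM.

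The first comparison asks at which times the 2 strains differ in each gene. A gene was called when its adjusted p was under 0.05 and its log2 fold change was over 2 in size. The study's figure legends give these thresholds, while its methods name a minimum fold change of 2, a log2 of 1. The test was edgeR's quasi-likelihood F statistic, adjusted by Benjamini and Hochberg's method across 6031 genes. No member was called lower in MMTT at any time. At 0 h 0 members were called, with 2 at an unadjusted p under 0.05 and 0 called by DESeq2, and 0.547% of all genes were called higher. At 30 min the counts were again 0, 2 and 0, with 1.71% of all genes called higher. At 45 min, 1h10min and 1h40min 1 member was called higher, MER1 each time, where 2.4%, 1.26% and 0.763% of all genes were. MER1 passed the filter on low values through its MMTT libraries alone, so its calls between strains, here and below, are given as a description, and the other 6 members had 0 calls at these 3 times. At 2h30min 3 were called, REC102, REC114 and MER1, against 3.2% of all genes. At 3h50min 2 were called, REC114 and MER1, against 1.51%, and at 5h40min 1, MER1, against 2.64%. At 8h30min 5 of 7 were called higher (SPO11, REC102, REC114, MEI4 and MER1), where 4% of all genes were.

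By the adjusted p alone, with no threshold on size, 6 of 7 members were higher in MMTT at 2h30min, 3h50min and 5h40min, and all 7 were at 8h30min. MER1, which passed the filter through MMTT alone, is in all counts and medians of this paragraph as a description. The others that passed were SPO11, REC102, REC104, REC114 and MEI4, joined by REC107 at 8h30min. The corresponding share of all genes was 15.7% at 2h30min, 9.27% at 3h50min, 11.6% at 5h40min and 20.3% at 8h30min. The member that did not pass at 2h30min, 3h50min and 5h40min was REC107. Before 2h30min, 0 were higher at 0 h, 1 at 30 min, 2 at 45 min, 4 at 1h10min and 2 at 1h40min. Of all genes 7.16%, 18.1%, 13.9%, 18.4% and 13% were, and REC107 was lower in MMTT at each of these times. The median log2 fold change of the members was 1.78 at 2h30min and 2.49 at 8h30min, beside medians over all genes of -0.03 and -0.05. All MMTT libraries lay above all SS libraries at 1h40min, 2h30min, 3h50min and 5h40min for every member except REC107, and for all 7 at 8h30min. At 0 h, 30 min, 45 min and 1h10min this held for 3, 2, 4 and 4 members. Of all genes tested 22.5% were separated in this way at 1h40min, 25.7% at 2h30min, 16.8% at 3h50min and 22.7% at 5h40min. At 0 h, 30 min, 45 min and 1h10min the shares were 25.1%, 32.3%, 17.8% and 28.1%. The call at 2h30min rests on few libraries: 1 member was called without MMTT 2h30min replicate 2, and 5 were called without replicate 1 of that group. In these 2 libraries the members were 1.38 to 2.72 times higher in replicate 2 than in replicate 1 (median 2.21).

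**Figure D3:**
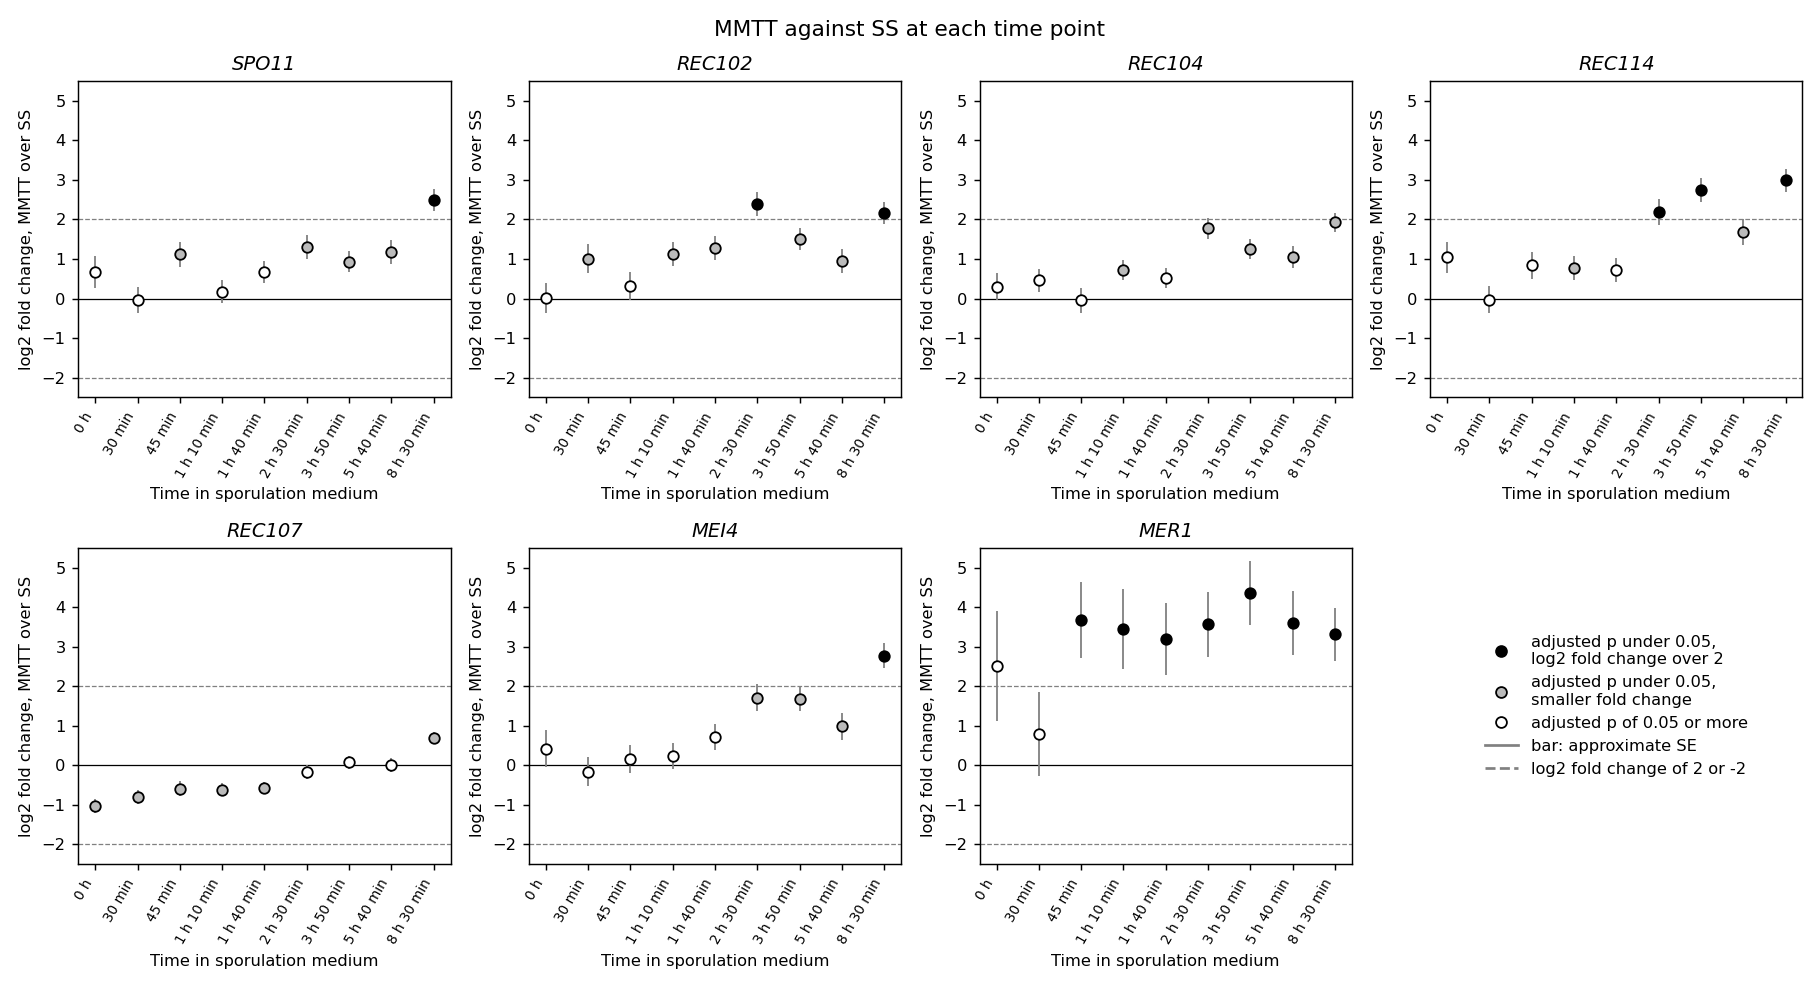
Log2 fold change of each break gene, MMTT over SS, at each time in sporulation medium, with approximate standard errors as bars. Black points are called genes, grey points passed the adjusted p with a smaller change and white points did not pass. The dashed lines mark a log2 fold change of 2 in either direction. REC107 runs from -1.03 at 0 h to 0.70 at 8h30min, while the other members lie between 1.92 and 3.32 at the last time.

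SPO11 encodes the protein that makes the cut. Its level at 0 h was 6.55, 9.55 and 9.45 CPM in MMTT and 7.32 and 3.27 CPM in SS, and the groups overlapped. At 2h30min it was 31.0 and 84.2 CPM in MMTT and 25.3, 20.2 and 24.9 CPM in SS. At 8h30min it was 155, 112 and 121 CPM in MMTT, all far above the 25.3, 18.7 and 25.004 CPM in SS. The log2 fold change at 8h30min was 2.49 (approximate SE 0.27), a 5.60-fold higher level in MMTT with an edgeR adjusted p of 1.9e-09. The strains had not differed by this test at 0 h (log2 fold change 0.67, SE 0.41, adjusted p 0.28) or at 30 min (-0.04, SE 0.32, adjusted p 0.94). Between these times the difference passed the adjusted p at 45 min (1.12) and from 2h30min onward (1.31, then 0.93 at 3h50min and 1.18 at 5h40min), without reaching the size threshold. SPO11 is also the single member that was called against 0 h in SS: its SS mean was 19.1 ± 0.580 CPM at 30 min (n = 2) and 26.8 ± 6.14 CPM at 3h50min (n = 3), its highest.

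REC102 and REC104 encode the 2 partners that hold Spo11 in the core complex. REC102 was at 3.87, 4.43 and 5.04 CPM in MMTT at 0 h and at 4.58 and 4.25 CPM in SS, with no difference between them (log2 fold change 0.01, SE 0.38). At 2h30min it was at 20.9 and 46.3 CPM in MMTT and at 6.96, 5.04 and 7.31 CPM in SS. At 8h30min it was at 63.7, 55.3 and 46.2 CPM in MMTT and at 14.4, 10.2 and 11.99 CPM in SS. All MMTT libraries lay above all SS libraries at both of these times. The log2 fold change was 2.39 (SE 0.31, edgeR adjusted p 3.1e-07) at 2h30min and 2.17 (SE 0.27, adjusted p 3.9e-08) at 8h30min. Both values were past the size threshold, while those between them were 1.505 at 3h50min and 0.94 at 5h40min. In MMTT the REC102 means were 6.82, 10.04 and 11.5 CPM at 30 min, 1h10min and 1h40min, when the SS means were 3.33, 4.57 and 4.78 CPM, and the difference passed the adjusted p at each of these 3 times (0.03, 0.0037 and 0.0023).

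REC104 had the highest level per kilobase of the 7 genes in MMTT at 8h30min. Its level there was 87.1, 76.7 and 62.8 CPM in MMTT and 17.5, 18.7 and 23.2 CPM in SS. The log2 fold change of 1.92 (SE 0.25, adjusted p 6.0e-08) stood just under the size threshold, so REC104 was not called although its groups did not overlap. At 0 h its level was 8.33, 9.21 and 9.13 CPM in MMTT and 8.85 and 5.56 CPM in SS, which overlapped. At 2h30min it was 40.5 and 100.1 CPM in MMTT and 24.2, 23.7 and 13.7 CPM in SS (log2 fold change 1.78, SE 0.27, adjusted p 4.5e-06). MMTT replicate 2 of that time, at 100.1 CPM, was the highest REC104 value in the 49 libraries.

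REC114, MEI4 and REC107 encode the 3 proteins that recruit the core complex, and their RNAs did not move alike. REC114 had the largest fold change of the 7 at 8h30min apart from MER1. Its level then was 134, 99.8 and 106 CPM in MMTT and 18.3, 11.9 and 12.2 CPM in SS, a log2 fold change of 3.00 (SE 0.29, edgeR adjusted p 1.1e-10), or 7.98-fold. At 3h50min it was 60.7, 53.5 and 44.4 CPM in MMTT and 11.7, 7.42 and 5.27 CPM in SS (2.75, SE 0.31, adjusted p 2.9e-08). These groups were separated by a wide gap at both times. At 2h30min it was 35.5 and 49.2 CPM in MMTT and 11.4, 4.75 and 11.4 CPM in SS (2.19, SE 0.32, adjusted p 3.0e-06). REC114 was higher in all 3 MMTT libraries than in both SS libraries at 0 h as well, at 13.7, 11.3 and 8.19 CPM in MMTT and 5.19 and 5.56 CPM in SS, but this did not pass (log2 fold change 1.04, SE 0.39, adjusted p 0.069). At 30 min the groups overlapped, with means of 13.3 CPM in MMTT and 13.5 CPM in SS.

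MEI4 was at 5.66, 5.46 and 5.98 CPM in MMTT at 0 h and at 4.58 and 3.92 CPM in SS (log2 fold change 0.42, SE 0.46, adjusted p 0.59). At 2h30min it was at 20.0 and 47.3 CPM in MMTT and at 10.2, 9.50 and 11.4 CPM in SS (1.71, SE 0.35, adjusted p 0.00033). At 8h30min it was at 108, 92.0 and 81.3 CPM in MMTT and at 14.7, 11.4 and 14.8 CPM in SS, a 6.84-fold difference (log2 fold change 2.77, SE 0.31, edgeR adjusted p 4.2e-09). The MMTT values at 8h30min all lay above those at any other time, where the highest was 47.3 CPM. Up to 1h10min the MEI4 means of the strains were close, at 11.6 CPM in MMTT and 12.9 CPM in SS at 30 min and at 13.3 CPM in MMTT and 11.4 CPM in SS at 1h10min.

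REC107 stood apart from the other 6. At 0 h it was lower in MMTT, at 50.9, 52.9 and 46.0 CPM in MMTT and 98.8 and 105 CPM in SS, with no overlap and a log2 fold change of -1.03 (SE 0.18, edgeR adjusted p 0.00014). It remained lower in MMTT by the adjusted p at 30 min (-0.80), 45 min (-0.59), 1h10min (-0.62) and 1h40min (-0.57). The strains did not differ by the test at 2h30min (-0.18, SE 0.18, adjusted p 0.45), 3h50min (0.07, SE 0.16, adjusted p 0.8) or 5h40min (0.01, SE 0.18, adjusted p 0.97). At 8h30min the order was turned round, with 124, 102 and 99.3 CPM in MMTT and 66.7, 67.0 and 66.6 CPM in SS (0.70, SE 0.16, adjusted p 0.00043). None of these differences was past the size threshold. REC107 was the most abundant member by CPM in all SS groups, and it is the member known to be transcribed outside meiosis.

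MER1 was the least abundant member and was close to the limit of detection in SS. In the 9 SS groups it had between 1 and 19 reads in all, and it passed the filter of 3 CPM in 3 libraries only through MMTT, where 14 libraries reached 3 CPM and 0 SS libraries did. At 8h30min its level was 21.2, 13.3 and 18.4 CPM in MMTT and 2.78, 1.99 and 0.510 CPM in SS. Its 239 reads in MMTT and 19 reads in SS there gave a ratio of 10.2 after scaling to library size, with an exact 95% interval of 6.36 to 17.2 that covers counting error only. At 3h50min its level was 11.5, 10.2 and 6.84 CPM in MMTT and 1.10, 0 and 0.351 CPM in SS, or 126 and 5 reads (ratio 22.4, interval 9.37 to 70.3). At 0 h 10 reads in MMTT and 1 read in SS gave a ratio of 6.69 with an interval of 0.952 to 290, in which a difference was not detectable at this depth. The interval lay above 1 at every time except 0 h and 30 min, a statement on counting error only. The early edgeR calls, which the filter favoured, were carried by single libraries: at 45 min the MMTT libraries stood at 10.8 and 0.938 CPM and the SS libraries at 0.788, 0 and 0.262 CPM, and the call was lost without MMTT replicate 1. At 1h10min the call was lost without MMTT replicate 2, and at 1h40min without SS replicate 1 or without SS replicate 2. Because each SS group had so few reads, the size of the MER1 fold change is poorly fixed.

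The second comparison asks how each gene changed from 0 h within a strain. In MMTT, with 6419 genes tested, 0 members were called at 30 min, 1h10min and 1h40min (unadjusted p under 0.05 in 3, 5 and 5 members, with 0 called by DESeq2 at each). The shares of all genes called higher at these times were 1.11%, 0.795% and 0.795%. At 45 min 1 member was called, MER1 (2.21% of all genes). At 2h30min 5 were called higher, SPO11, REC102, REC104, MEI4 and MER1, where 3.57% of all genes were. At 3h50min 6 were called, with REC114 added, against 2.31%, and at 5h40min 5 were, without REC114, against 2.74%. At 8h30min 6 of 7 were called higher, where 4.8% of all genes were, and the member not called was REC107, with a log2 change of 1.12 (SE 0.17, adjusted p 1.7e-05). The other log2 changes at 8h30min in MMTT were 4.03 for MEI4 (SE 0.34) and for MER1 (SE 0.67), 3.93 for SPO11 (SE 0.37), 3.62 for REC102 (SE 0.30), 3.35 for REC114 (SE 0.23) and 3.09 for REC104 (SE 0.29). Their median over the 7 was 3.62, beside a median over all genes of 0. At 2h30min 3 members were called without MMTT 2h30min replicate 2, and at 45 min the count was 0 without MMTT 45 min replicate 1 or without any one of the 3 MMTT libraries at 0 h, and 2 (SPO11 and MER1) without MMTT 45 min replicate 3.

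The earliest changes passed the test in both strains. At 30 min SPO11, REC104 and MEI4 had passed the adjusted p in both, 3 of 7 members in each strain, when 18.6% of all genes had done so upward in MMTT and 12.3% in SS. The log2 change of SPO11 at 30 min was 1.14 in MMTT (SE 0.38, adjusted p 0.023) and 1.82 in SS (SE 0.31, adjusted p 0.00013). That of REC104 was 1.32 in MMTT (SE 0.30) and 1.14 in SS (SE 0.33), and that of MEI4 was 1.02 in MMTT (SE 0.36) and 1.59 in SS (SE 0.44). The other 4 members did not pass at 30 min in either strain. The difference between the strains' changes at 30 min did not pass for any member, as given below.

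In SS, with 6350 genes tested, SPO11 was the single member called against 0 h, and it was called at 2h30min (log2 change 2.12, SE 0.29), 3h50min (2.29, SE 0.29) and 8h30min (2.11, SE 0.29). The shares of all genes called higher at these times were 1.76%, 2.08% and 3.31%. All 3 calls were lost without SS 0 h replicate 3, the lower of the 2 SS libraries at 0 h (3.27 and 7.32 CPM). At 30 min, 45 min, 1h10min, 1h40min and 5h40min 0 members were called, with 5, 4, 4, 4 and 5 members at an unadjusted p under 0.05 and 0 called by DESeq2. The shares of all genes called higher at these 5 times were 1.18%, 2.2%, 2.13%, 1.46% and 2.14%. Without SS 0 h replicate 2, 1 member was called at each of these times but 5h40min, where 2 were. At 8h30min 5 of 7 members were higher than at 0 h by the adjusted p alone (22.2% of all genes), and REC107 was lower. The log2 changes of these 5 at 8h30min were 2.11 for SPO11, 1.68 for MEI4 (SE 0.42), 1.47 for REC102 (SE 0.39), 1.46 for REC104 (SE 0.31) and 1.40 for REC114 (SE 0.45). REC107 changed by -0.60 (SE 0.16, adjusted p 0.0034), and the MER1 change of 3.22 rested on 1 read at 0 h and did not pass (SE 1.41, adjusted p 0.07).

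**Figure D4:**
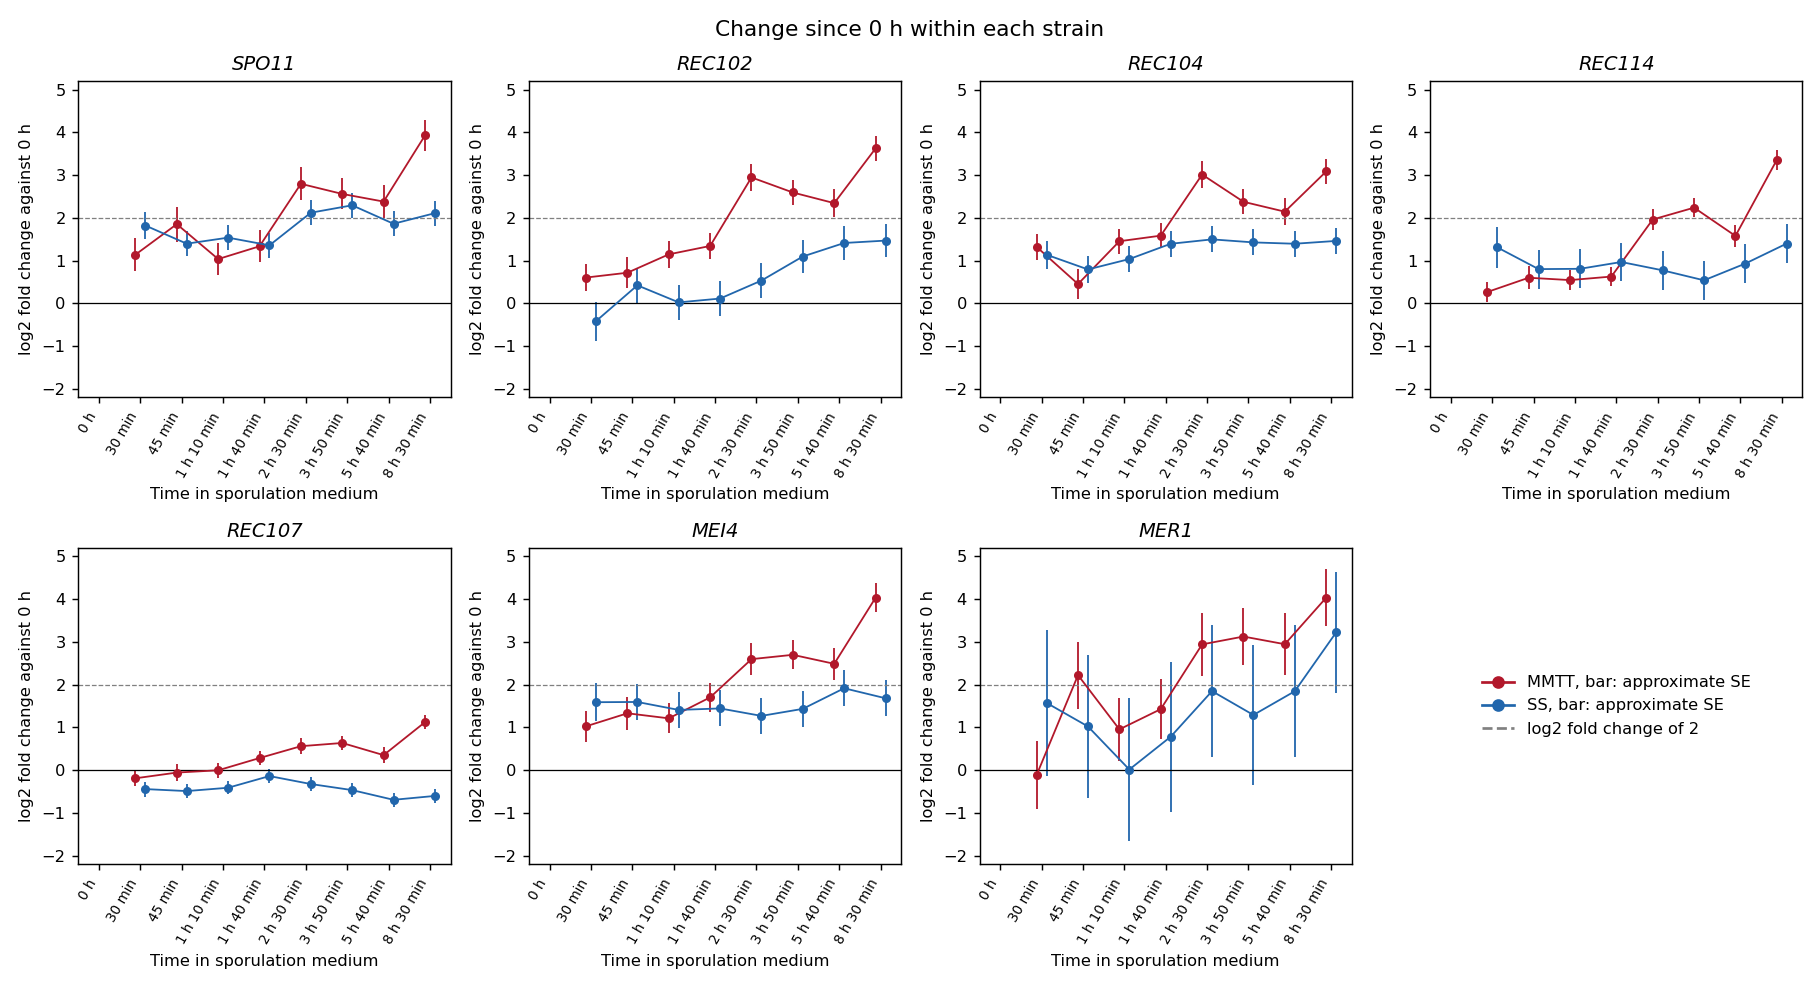
Log2 change of each break gene since 0 h in MMTT and in SS, against time in sporulation medium, with approximate standard errors as bars and a dashed line at a log2 change of 2. At 8h30min the MMTT change exceeds 3 for the 6 members other than REC107 (1.12), and the SS change lies between 1.40 and 2.11 for SPO11, MEI4, REC102, REC104 and REC114.

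Whether the time course itself differed between the strains was tested with the strain by time interaction over all 8 later times together, at an adjusted p under 0.001. It was called for 6 of 7 members, against 14.8% of all genes. The edgeR adjusted p was 2.4e-06 for REC114, 3.7e-06 for REC107, 4.0e-05 for MEI4, 0.00021 for SPO11, 0.00057 for REC104, 0.00087 for REC102 and 0.67 for MER1. The count was 3 with all 54 libraries, when REC102, REC104 and MEI4 were lost, and 3 without MMTT 8h30min replicate 1 or without SS 8h30min replicate 2, when SPO11, REC102 and REC104 were lost. REC114 and REC107 were called under each of these 3 alternatives.

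The changes since 0 h were then compared at each time, as the MMTT change minus the SS change. At 2h30min 1 member was called, REC102 (2.38 on the log2 scale, SE 0.50, adjusted p 0.0039), where 0.912% of all genes were called higher, and without MMTT 2h30min replicate 2 its adjusted p was 0.094. At 8h30min 2 members were called, MEI4 (2.35, SE 0.56, adjusted p 0.0021) and REC102 (2.16, SE 0.47, adjusted p 0.00078), where 2.5% of all genes were. By the adjusted p alone 6 of 7 passed at 8h30min, against 11% of all genes: these 2 with REC114 (1.96, SE 0.49), SPO11 (1.82, SE 0.50), REC107 (1.73, SE 0.24) and REC104 (1.63, SE 0.42). The REC107 difference had the smallest adjusted p of the 7, 7.9e-07, and REC107 was the member that rose in MMTT (1.12) and fell in SS (-0.60). The MER1 difference was 0.82 with an SE of 2.67, an error too wide for any statement on it. At 30 min, 45 min, 1h10min, 1h40min, 3h50min and 5h40min 0 members were called, with 1, 0, 1, 1, 5 and 1 members at an unadjusted p under 0.05 and 0 called by DESeq2. SPO11 and REC104 did not pass at 8h30min without SS 0 h replicate 2 (adjusted p 0.27 and 0.097).

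Within MMTT few neighbouring times in the order of the means could be told apart by their libraries. For all 7 genes the 8h30min mean was the highest, and its libraries did not overlap the next group in SPO11, REC114, REC107, MEI4 and MER1. In REC102 and REC104 replicate 2 of 2h30min reached the 8h30min range. Among the 8 neighbouring pairs in the order of MMTT means, 3 had libraries that did not overlap for REC102 and MEI4, 2 for SPO11, REC104, REC114 and REC107, and 1 for MER1. The 0 h libraries, which had the lowest mean, lay below those of the next group for SPO11, REC102, REC104 and MEI4. In SS the number of neighbouring pairs without overlap was 2 for SPO11, REC102, REC104 and MEI4, 1 for REC107 and 0 for REC114 and MER1. The same counts were not made over all genes, so those given here describe the members only.

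Between genes, levels were compared per kilobase of coding length. At 8h30min in MMTT the order was REC104 (138 ± 22.2 CPM per kilobase), REC107 (115 ± 14.5), SPO11 (108 ± 18.7), REC114 (88.0 ± 14.4), MEI4 (76.3 ± 10.8), REC102 (69.3 ± 10.97) and MER1 (21.7 ± 4.93; SD, n = 3 each). Neighbours in this order lay within 1 SD or little more of each other, down to MER1, which lay well below the rest. In SS at the same time REC107 was first at 70.7 CPM per kilobase, followed by REC104 at 36.1, SPO11 at 19.2, REC102 at 15.4, MEI4 at 11.1, REC114 at 11.01 and MER1 at 2.16. At 0 h REC107 was first in both strains, at 52.8 CPM per kilobase in MMTT and 108 in SS, and the next gene was REC104, at 16.2 in MMTT and 13.1 in SS.

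Across the 49 libraries, which share times and strains, the 15 pairs of members without REC107 had Pearson correlations of log2 CPM between 0.71 and 0.88. Within the 24 MMTT libraries these correlations were 0.75 to 0.95, and within the 25 SS libraries 0.11 to 0.80. The 0.11 was that of MEI4 with MER1, which was close to the limit of detection in SS. Without MER1 the lowest in SS was 0.20, for REC102 with REC114. The 6 pairs with REC107 had correlations of 0.69 to 0.91 within MMTT and of -0.58 to -0.33 within SS. In MMTT REC107 thus followed the other members, and in SS it ran against them. Ranked by the correlation of log2 CPM with the mean of the members, the 5 genes outside the set most like it among 6031 were YKR005C (0.971), REC8, the meiotic cohesin subunit (0.968), MSH4, a crossover protein (0.960), SPO19, a meiosis-specific prospore protein gene (0.955), and ECM11, which acts in synapsis (0.950). The same measure was 0.375 for REC107, rank 1019, although it is part of that mean.

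Other genes of break formation were compared at 8h30min from 4 lists, chosen like the members with earlier results of these data known. At that time 4% of all genes were called higher and the median over all genes was -0.05. The 12 partners that also work outside meiosis had 0 genes called by edgeR, with 6 at an unadjusted p under 0.05, 1 called by DESeq2 (SAE2) and a median log2 fold change of 0.15. SAE2, which helps remove Spo11 from break ends, was at 1.96 (SE 0.53, adjusted p 0.0026), just under the size threshold. The kinase genes CDC7 and DBF4, whose product phosphorylates Mer2, were at 1.47 (SE 0.18) and 1.15 (SE 0.21), and SKI8 was at 0.61 (SE 0.17, adjusted p 0.0040). SPP1, which links Mer2 to methylated histones, was lower in MMTT, at -0.47 (SE 0.11, adjusted p 0.0011). RAD50, MRE11 and XRS2, the nuclease complex needed for breaks and for their repair, were at 0.07, 0.13 and 0.09 and did not pass.

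The chromosome axis genes, beside whose proteins the breaks are made, were all called higher, 4 of 4 with a median of 2.75. MEK1, the axis kinase, averaged 247 ± 42.6 CPM in MMTT and 19.4 ± 5.75 CPM in SS (3.66, SE 0.29). REC8 was at 2.90 (SE 0.24), RED1 at 2.60 (SE 0.26) and HOP1 at 2.17 (SE 0.24). Of the 4 genes of Mer1 splicing the 3 targets whose introns are printed above were called higher, AMA1 (3.98, SE 0.27), SPO22 (3.19, SE 0.26) and HFM1 (2.47, SE 0.22), and NAM8, whose protein acts with Mer1, was at 0.50 (SE 0.23, adjusted p 0.070). AMA1, an activator of the anaphase-promoting complex in meiosis, averaged 1165 ± 316 CPM in MMTT and 73.5 ± 12.3 CPM in SS. REC107, the Mer1 target within the set, was at 0.70 at the same time. These are levels of RNA and say nothing of how much of it was spliced.

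Of 6 regulators 2 were called higher at 8h30min. NDT80 averaged 471 ± 129 CPM in MMTT and 29.4 ± 1.62 CPM in SS (4.001, SE 0.31). IME2, the meiotic kinase, averaged 1321 ± 261 CPM in MMTT and 124 ± 11.8 CPM in SS (3.41, SE 0.37). IME1, the inducer of early genes, passed the adjusted p at 1.28 (SE 0.50, adjusted p 0.036), RIM11, the kinase through which Ime1 joins Ume6, at 0.56 (SE 0.15), and SUM1, a repressor of middle genes, was lower at -0.29 (SE 0.12, adjusted p 0.048). UME6 itself was at 0.09 (SE 0.19). At 0 h 0 genes of these 4 lists were called between the strains by edgeR or by DESeq2, with 3, 0, 1 and 2 at an unadjusted p under 0.05 among the partners, axis genes, Mer1 splicing genes and regulators.

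**Figure D5:**
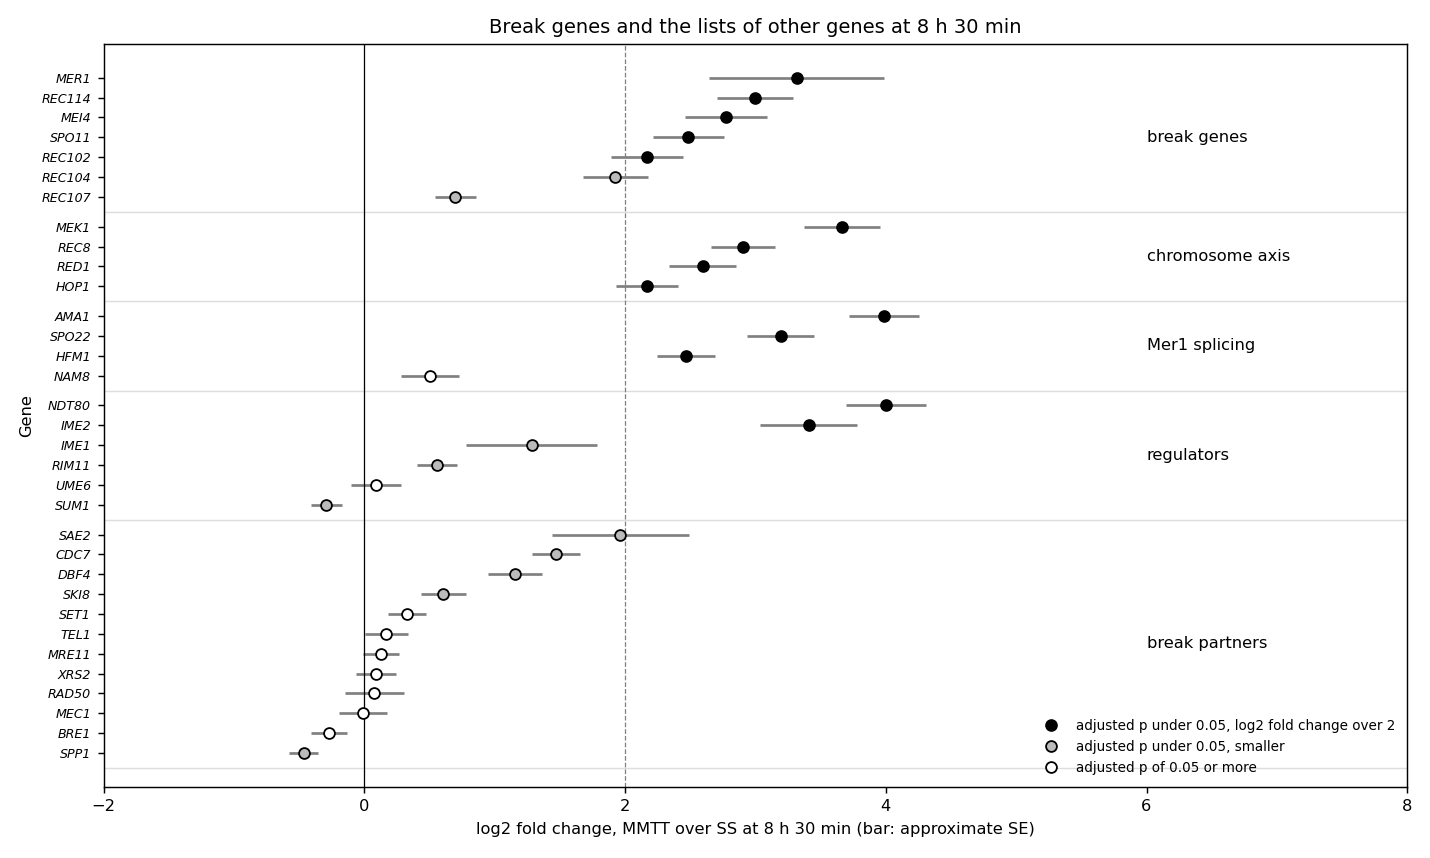
Log2 fold change, MMTT over SS, at 8h30min for the 7 break genes and for the 4 lists of other genes, with approximate standard errors as bars. Black points are called genes, grey points passed the adjusted p with a smaller change and white points did not pass. The axis genes lie between 2.17 and 3.66, the 7 break genes between 0.70 and 3.32, and most of the 12 partners lie near 0.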

How the data were processed

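The 54 yeast libraries (2 strains, 9 time points, 3 replicates each) were made with a directional RNA library kit and sequenced as read pairs. Per the labels and the study's methods, the authors ran FastQC, removed ribosomal reads, aligned with STAR and deposited raw counts per gene; versions, genome build, annotation and the strand setting are not given in the sources used here. The 49 libraries kept by the study formed the groups, and the 5 left out are given apart. The counts as deposited were fitted in R 4.3.3 with edgeR 4.0.16 (TMM scaling, robust quasi-likelihood test, 1 mean per group), with genes kept at 3 CPM in at least 3 libraries between strains (6031 genes) and at 0.5 CPM in at least 3 within a strain (6419 genes in MMTT, 6350 in SS). The Benjamini-Hochberg adjustment covered every gene tested. A call needed an adjusted p under 0.05 and a log2 fold change over 2 in size, and the interaction an adjusted p under 0.001. Standard errors were taken from the fold change and its F value and are approximate, and log2 CPM used a prior count of 2. The alternatives were DESeq2 1.42.0, RLE scaling, no filter, all 54 libraries, a log2 threshold of 1, the replicate number as a block, and each library left out in turn. The fits were tested on simulated data first.

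Depth in the 49 libraries was 1455002 to 5793502 reads, so that 1 CPM stands for 1 to 6 reads. A floor of 3 counts was set as the limit of detection. Replicates within a group differed by more than sampling noise (chi-square per degree of freedom of 4.85 or more in 54 pairs, median 13.9). No source says whether the replicates came from separate cultures, so the p-values measure the spread between these libraries, which may be technical. Gene positions and sequences are from RefSeq R64, in which 5906 of 6571 systematic names were found, and near copies were sought with blastn 2.17.0. All 7 members are named throughout. The members and the lists of other genes were chosen with earlier results of these data known.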

Additional observations from a re-analysis of the deposited data

Results flagged for a closer look

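The change since 0 h differed between MMTT and SS, by a test of the difference itself, in 11 of 56 tests. The tests covered 7 genes and 8 times (edgeR, adjusted p under 0.05). Of all genes, 2.42% passed upward at 2h30min, 1.09% at 3h50min, 1.53% at 5h40min and 11% at 8h30min. As the MMTT change minus the SS change on the log2 scale, the differences at 2h30min were 2.38 for REC102, 1.48 for REC104 and 0.85 for REC107. REC107 differed by 1.10 at 3h50min and by 1.04 at 5h40min, when no other member passed. At 8h30min the differences were 2.35 for MEI4, 2.16 for REC102, 1.96 for REC114, 1.82 for SPO11, 1.73 for REC107 and 1.63 for REC104. Those of REC104 and REC107 at 2h30min did not pass without MMTT 2h30min replicate 2 (adjusted p 0.48 and 0.30), nor did that of REC107 at 5h40min without MMTT 5h40min replicate 1 (adjusted p 0.055). With all 54 libraries REC107 did not pass at 2h30min, 3h50min or 5h40min (adjusted p 0.14, 0.15 and 0.074). REC114 at 3h50min, with a difference of 1.71 and an adjusted p of 0.06, passed under DESeq2 (0.024) and with the replicate block (0.03).

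The 3 MMTT libraries that the study left out were set beside the SS libraries of their own time. Over the 7 genes, 16 of 21 values lay above every SS library kept at that time. The share of all genes above SS in these libraries was not computed, so the count is a description. Whole kept MMTT groups lay above SS for 17.8% of all genes at 45 min, 25.7% at 2h30min and 22.7% at 5h40min. MMTT 45 min replicate 2 held 66.4 CPM of SPO11, 35.5 of REC102, 21.7 of REC104, 47.4 of REC114, 59.3 of MEI4 and 6.62 of MER1. The MMTT libraries kept at 45 min held 45.1 and 20.3 CPM of SPO11, 8.25 and 6.94 CPM of REC102 and 7.62 and 19.3 CPM of MEI4, so this library was higher than both. MMTT 2h30min replicate 3, which had 303349 reads in all, held 64.4 CPM of SPO11, 23.4 of REC102, 93.7 of REC104, 52.7 of REC114, 96.6 of REC107 and 29.3 of MEI4. MMTT 5h40min replicate 3 held 27.9 CPM of SPO11, 20.5 of REC114, 20.3 of MEI4 and 3.92 of MER1. It lay below both MMTT libraries kept at that time for these genes, which held 49.3 and 39.5 CPM of SPO11, 40.6 and 25.6 CPM of REC114, 39.6 and 24.6 CPM of MEI4 and 9.34 and 7.27 CPM of MER1. No group held enough libraries for a test of single libraries that stand apart.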

How the results depend on the processing

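Under RLE scaling, no filter, DESeq2 and the replicate block, all 34 counts of members called or with an interaction stayed within 1.5 times. With all 54 libraries 3 members instead of 1 were called at 45 min against 0 h in MMTT, with SPO11 and MEI4 added, and 3 instead of 6 had an interaction. With a log2 threshold of 1 in place of 2, 24 of 33 counts moved. Between strains the counts were then 1 at 0 h (REC107, lower in MMTT), 1 at 30 min, 2 at 45 min, 1h10min and 1h40min, 6 at 2h30min, 5 at 3h50min and 4 at 5h40min. Against 0 h in MMTT they were 3 at 30 min and 45 min and 4 at 1h10min and 1h40min. Against 0 h in SS they were 3 at 30 min, 2 at 45 min, 3 at 1h10min, 1h40min and 2h30min, 4 at 3h50min and 5h40min and 5 at 8h30min. For the difference of the changes they were 2 at 2h30min, 1 at 3h50min and 5h40min and 6 at 8h30min. The lower threshold alone makes these counts larger. It raises the number of calls over all genes too, but that share was not computed, so the counts are a description.

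Leaving out each library in turn kept 240 of 266 counts within 1.5 times. Between strains the ranges were 0 to 1 at 45 min, 1h10min and 1h40min and 1 to 5 at 2h30min. Against 0 h they were 0 to 2 at 45 min and 3 to 6 at 2h30min in MMTT. In SS they were 0 to 1 at 30 min, 45 min, 1h10min, 1h40min, 2h30min and 3h50min and 0 to 2 at 5h40min and 8h30min, the 2 at 8h30min without SS 8h30min replicate 3. For the difference of the changes they were 0 to 2 at 2h30min, 0 to 1 at 3h50min (REC114 without SS 3h50min replicate 1) and 2 to 3 at 8h30min, and for the interaction 3 to 6. Where 1 library remained in a group, its spread was taken from the other groups. Whether a single fold change between strains was called stayed the same in 331 of 343 cases. In the rest 7 lost their call and 5 gained one, and 0 of the called ones were reversed. Of 658 fold changes between strains under these alternatives 24 changed sign, none of them called and none above 0.30 in size in the fit reported. Uncalled differences of the changes moved further when a library was left out: MER1 was 1.84 at 3h50min and 0.82 at 8h30min, with lowest values of -0.70 and -1.69, and SPO11 was 0.64 at 2h30min, with a lowest value of -0.22. The cause was not tested.

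Equal replicate numbers showed no clear pairing of the libraries: across strains at 1 time point the deviations of equal-numbered libraries had a mean correlation of -0.092 over 27 pairs, 2 of them over 0.1. Within a strain the mean correlation of equal numbers was 0.046 in MMTT and 0.0026 in SS. In the fit of both strains the replicate block joins equal numbers of the 2 strains, so it does not stand for a culture within a strain. With the replicate block 3 members instead of 2 were called for the difference of the changes at 8h30min, REC114 being added, and no other count changed. Depth limits MER1 most, since the SS groups held 1 to 19 MER1 reads each.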
